A study of Mus musculus with 6 samples.

Results

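The genes described here are the ion and metal solute carriers that carry a symbol of the families Slc4, Slc8, Slc9, Slc11, Slc12, Slc20, Slc24, Slc26, Slc30, Slc34, Slc39, Slc40 or Slc41 in the deposited count table. The choice rested on the symbol only, and it gave 49 of the 14831 genes listed. No Slc34 symbol was among them, and 3 further genes of these families that the table lists without a symbol, Slc9a7, Slc26a7 and Slc8a2, were kept apart. RNAseq was done on immortalized mouse pancreatic fibroblasts of a mixed strain, grown to confluence in 3 separate wells for each group in DMEM with calf serum and antibiotics. In all, 3 libraries are labelled WT and 3 are labelled KO for Gli2 and Gli3, the transcription factors of the Hedgehog (HH) pathway. The study's methods describe fibroblast lines grown out of the pancreata of adult mice with floxed Gli alleles, so that both groups carry them. In those methods, control cells received an eGFP adenovirus and a dsRed lentivirus, and knockout cells received an eGFP adenovirus and a Cre adenovirus. Cells were then sorted, and recombination was screened with qPCR and western blots. The paper also reports that its Gli2/Gli3 KO fibroblasts did not respond to HH stimulation. The wells of a group give the spread of culture and library preparation and not that of independently made lines, and p-values measure only this spread.

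Solute carriers move ions and small molecules across membranes. Slc30 proteins carry zinc out of the cytosol, into vesicles or out of the cell, and Slc39 proteins carry zinc, and in some cases iron or manganese, into the cytosol. Slc12 cotransporters set the chloride content and the volume of a cell, and the Slc4 and Slc26 families exchange or cotransport chloride, bicarbonate and other anions. At the plasma membrane, Slc9 exchangers remove protons in exchange for sodium, and other Slc9 members lie in organelles. In the pancreas the bicarbonate and chloride carriers are best known from duct cells, which secrete an alkaline fluid. Fibroblasts use the same families to hold their own volume, pH and metal content.

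The labels were checked first on the targeted genes. Gli2 had 809, 944 and 868 counts in WT-labelled libraries and 1932, 2316 and 1926 in KO-labelled ones. Gli3 had 392, 416 and 398 counts in WT-labelled libraries and 1434, 1637 and 1404 in KO-labelled ones. Both targeted genes were thus higher in KO-labelled libraries, against the labels, although counts over a whole gene also include exons that a floxed deletion leaves in place. The HH target Gli1 went from 40, 50 and 37 counts to 4, 10 and 13, and the HH target and receptor Ptch1 went from 7046, 7912 and 7834 counts to 2732, 3416 and 2851. No library was moved, and every direction is given as the KO-labelled libraries relative to the WT-labelled ones. Totals were 31728420 to 41035931 counts on genes, so that 3 counts, used here as the floor of detection, are 0.072 to 0.0957 CPM, the counts scaled to a common library size. Of the cell type markers, 10 of 11 fibroblast genes were listed, with summed levels of 57400 to 58130 CPM in WT-labelled libraries and 47300 to 49660 in KO-labelled ones. Single genes of this list differed: Dcn, Col3a1, Pdgfra and Pdgfrb had log2 fold changes of -1.55, -0.94, -0.90 and -0.66, and S100a4 one of 1.67. Those of Col1a1, Col1a2, Vim and Fn1 lay between -0.19 and 0.01. Pdpn was not listed and Thy1 was not tested. Of 7 epithelial markers 3 were listed, with sums of 4.29 to 5.23 and 23.9 to 24.4 CPM, and Epcam, Krt18, Krt19 and Cldn4 were not. Of 5 acinar markers only Cela1 was listed, at 7.36 to 8.84 and 13.6 to 15.4 CPM. The macrophage and leukocyte list had 3 of 6 genes listed, at 39.5 to 45.6 and 38.4 to 40.1 CPM, without Ptprc, Adgre1 and Itgam. No endothelial or adipocyte marker was listed, of 4 and 2, and 2 of 3 neural and Schwann markers were, at 3.45 to 4.86 and 3.30 to 4.27 CPM. The part of these shifts in the results was not tested, and in bulk RNA fewer cells of a type and less RNA per cell cannot be told apart.

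Of the 49 genes, 47 passed the expression filter and were tested among 14289 genes. Genes were called at a Benjamini-Hochberg adjusted p under 0.05 in edgeR's quasi-likelihood test and a change of at least 1.5-fold. Under this rule 6 members were called, 12.8% of those tested, against 17.7% of all tested genes. Slc4a4, Slc12a5 and Slc26a10 were higher in KO-labelled libraries, a direction taken by 11.6% of all tested genes. Slc12a7, Slc24a3 and Slc39a6 were lower, as were 6.1% of all tested genes. Without the fold limit, 36 members (76.6%) passed the adjusted p, against 58.7% of all tested genes. Of these, 17 members (36.2%) were higher, against 29.9% of all genes, and 19 (40.4%) were lower, against 28.8%. CPM values of the groups did not overlap for 37 of the 47 members (78.7%), against 64.2% of all tested genes. The fold change was under 1.5 for 40 of the 47 (85.1%), near the 80.9% of all tested genes. The median size of a log2 fold change was 0.26 over the members and 0.22 over all tested genes. The members were also more abundant, with a median of 37.3 CPM against 22.7 CPM, and had a smaller median standard error (SE), 0.048 against 0.057 on the log2 scale. The part of these levels in the share past the adjusted p was not tested. The plot of log2 fold change against CPM shows them among all tested genes.

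**Figure D1:**
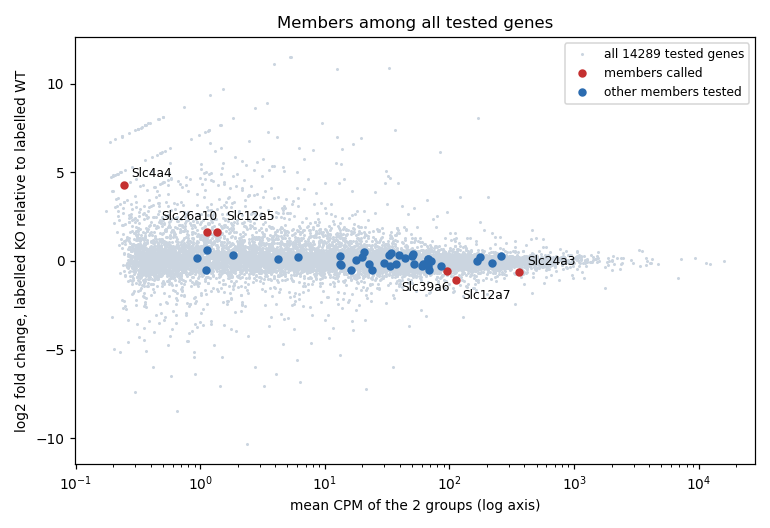
Each point is a gene, with its mean CPM over both groups on a log axis and its log2 fold change in the KO-labelled libraries relative to the WT-labelled ones. Small grey points are all 14289 tested genes, blue and red points are 44 tested members, blue those that were not called, and red the 6 called members. Of the called members, Slc4a4, Slc12a5 and Slc26a10 lie at low CPM and high fold change, and Slc12a7, Slc24a3 and Slc39a6 lie at high CPM below 0.

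Levels of different genes were set side by side only as CPM per kb of merged exon length. On this scale the mean level over the 6 libraries was highest for Slc24a3 at 79.8, Slc39a1 at 74.3 and Slc12a4 at 60.1. Slc39a13 at 33.9 and Slc4a2 at 26.3 CPM per kb followed. The order at the top was not the same in both groups: Slc24a3 was first in WT-labelled libraries and the third in KO-labelled ones, where Slc39a1 was first. At the other end, Slc4a8 and Slc4a4 were at 0.0127 and 0.0225 CPM per kb. The plot of levels by library shows how little the wells of a group differ beside the distance between genes.

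**Figure D2:**
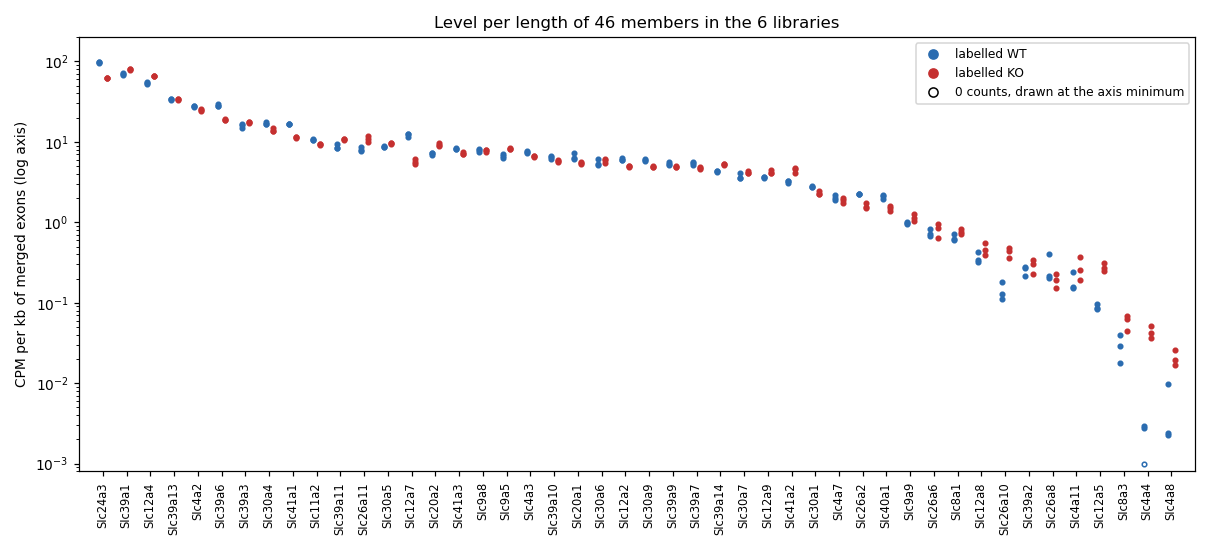
The level of 46 of the 49 members is drawn as CPM per kb of merged exons on a log axis, from the highest mean at the left to the lowest at the right, with 1 point for each of the 3 WT-labelled libraries (blue) and the 3 labelled KO (red). An open point marks 0 counts. Slc24a3, Slc39a1 and Slc12a4 lead, and Slc8a3, Slc4a4 and Slc4a8 are lowest.

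All 16 listed zinc transporters were tested, and 13 (81.2%) passed the adjusted p, 6 higher and 7 lower, against 58.7% of all tested genes. Of the 16, only Slc39a6 (6.25%) was called, against 17.7% of all tested genes. The median size of their log2 fold changes was 0.19, near the 0.22 of all tested genes. Among the exporters, Slc30a4, which loads zinc into vesicles, had the highest level per length. Its values were 91.7, 96.1 and 91.2 CPM in WT-labelled libraries and 75.0, 75.5 and 81.2 CPM in KO-labelled ones, with no overlap and a log2 fold change of -0.27 (SE 0.04, adjusted p = 6.28e-05). Slc30a1, the exporter of the plasma membrane, fell by 0.26 and Slc30a9 fell by 0.29 on the log2 scale. Slc30a5 and Slc30a7, which supply zinc to the secretory pathway, rose by 0.13 and 0.16. Slc30a6, the partner of Slc30a5, had a log2 fold change of 0.07 (adjusted p = 0.401). Thus 5 of 6 exporters passed the adjusted p, 2 higher and 3 lower. Summed over the 6 exporters, the level was 43.8 ± 0.79 CPM per kb (SD, n = 3) in WT-labelled libraries and 40.9 ± 1.33 in KO-labelled ones, without overlap.

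The importer Slc39a6 (ENSMUSG00000024270.11, GRCm38 chromosome 18, 24579881 to 24603817, minus strand) brings zinc across the plasma membrane. It had 119, 114 and 114 CPM in WT-labelled libraries and 75.8, 79.1 and 76.2 CPM in KO-labelled ones. The groups lay far apart compared with the spread of wells, and the log2 fold change was -0.59 (SE 0.03, adjusted p = 1.22e-08). This size is at the fold limit of the call. With scaling by total counts only it was -0.55 on the log2 scale, with at least 10 counts in every library -0.58, and without WT library 1, KO library 1 or KO library 3 it was -0.57, -0.58 and -0.58. Each of these is under the fold limit, with adjusted p values up to 1.96e-07. Slc39a1, the most abundant importer, had 164, 167 and 158 CPM in WT-labelled libraries and 191, 189 and 185 CPM in KO-labelled ones. It was higher in every KO-labelled library, with a log2 fold change of 0.20 (SE 0.03, adjusted p = 0.000113).

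Of the other importers, Slc39a14, which also carries iron and manganese, rose by 0.29 on the log2 scale, Slc39a11 rose by 0.31 and Slc39a3 rose by 0.12. Slc39a7, which releases zinc from the endoplasmic reticulum and Golgi, fell by 0.19, Slc39a9 fell by 0.15 and Slc39a10 fell by 0.15. Reads of Slc39a7 are uncertain, because 80.7% of its exon bases are shared on the same strand with the annotated gene Gm20427. Slc39a13, a zinc carrier of the secretory pathway, had 165 ± 4.24 CPM and 165 ± 2.71 CPM (SD, n = 3), with a log2 fold change of 0.00052 (SE 0.03, adjusted p = 0.991). Slc39a2 was near 1 CPM, with a log2 fold change of 0.18 (SE 0.22, adjusted p = 0.489). Whether the small changes of Slc30a7, Slc39a3 and Slc39a7 passed the adjusted p depended on single libraries and on the test. With all 6 libraries, limma on the deposited log2 CPM gave adjusted p values of 0.0801 for Slc30a7 and 0.0814 for Slc39a3, and DESeq2 gave 0.0702 for Slc39a7. The adjusted p of Slc30a7 was 0.0574 without WT library 1 and 0.0852 without WT library 2. That of Slc39a3 was 0.102, 0.069 and 0.0555 without WT library 3, KO library 1 and KO library 2. For Slc39a7 it was 0.0825 without WT library 2 and 0.0763 without KO library 2.

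The shares of single importers moved more than their sum. The 10 Slc39 genes together had 177.9 ± 3.85 CPM per kb in WT-labelled libraries and 181.5 ± 1.70 in KO-labelled ones (SD, n = 3), and these ranges overlapped. Within that sum, the share of Slc39a6 was 16.0% ± 0.39 in WT-labelled libraries and 10.4% ± 0.23 in KO-labelled ones. The share of Slc39a1 was 38.8% ± 0.39 and 43.8% ± 0.31. Beside the carriers, lists of their partner genes were read against the same shares of all tested genes, 58.7% past the adjusted p and 17.7% called. Of 4 genes of the metal response, 3 were listed. The metallothionein Mt1, which binds zinc, rose by 0.33 on the log2 scale (SE 0.05) from 33.2 to 41.6 CPM, and the metallothionein Mt2 fell by 0.34 (SE 0.09) from 6.31 to 4.97 CPM. The zinc-sensing transcription factor Mtf1 was at 17.4 CPM in both groups, with a log2 fold change of 0.01 (SE 0.06, adjusted p = 0.923).

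**Figure D3:**
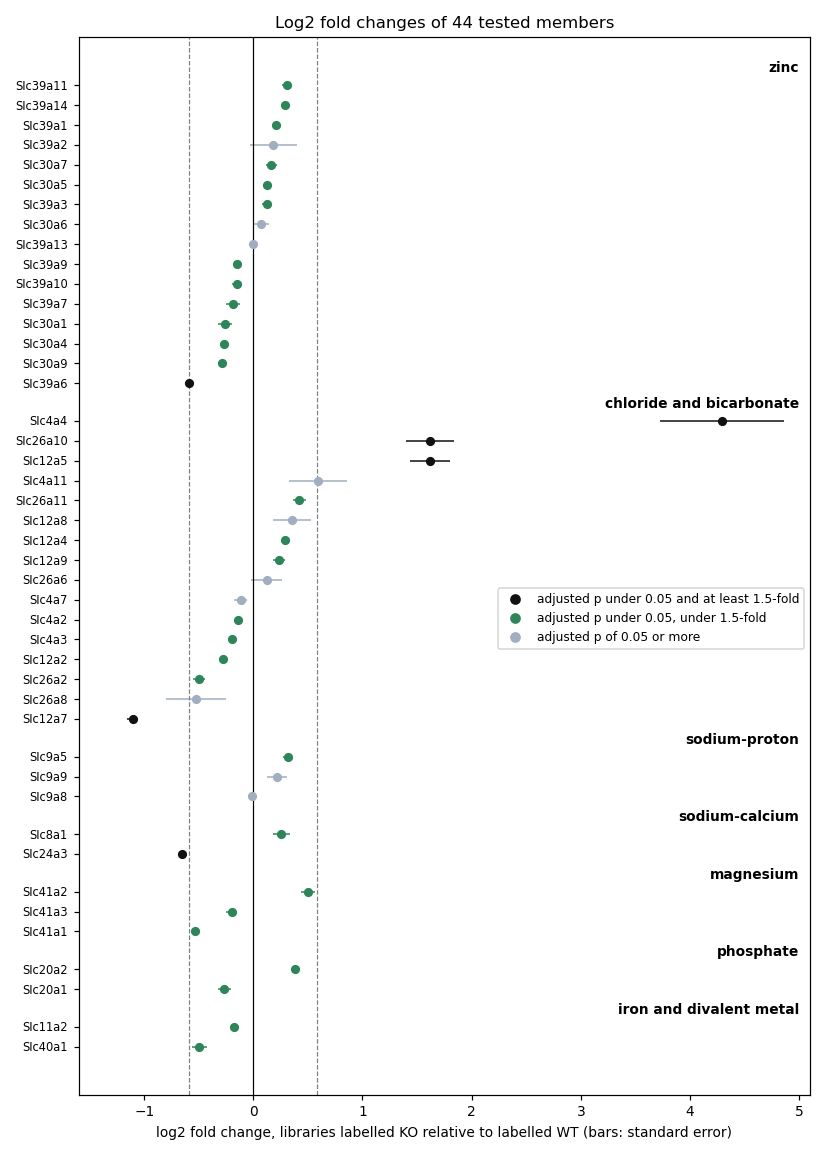
Each point is the log2 fold change of 1 of 44 tested members in the KO-labelled libraries relative to the WT-labelled ones, with its SE as a bar, grouped by what the family carries. Dashed lines mark 1.5-fold in each direction. Black points passed the adjusted p and the fold limit, green points the adjusted p only, and grey points neither. Of the 16 zinc transporters, Slc39a6 alone reaches the dashed line, and the 3 points far to the right are Slc4a4, Slc26a10 and Slc12a5.

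Of 18 chloride and bicarbonate carriers listed in Slc4, Slc12 and Slc26, 17 were tested. Of these, 4 (23.5%) were called, against 17.7% of all tested genes, and 12 (70.6%) passed the adjusted p, 7 higher and 5 lower, against 58.7%. The largest fall among the tested members was that of Slc12a7 (ENSMUSG00000017756.9, GRCm38 chromosome 13, 73733094 to 73816754, plus strand), the potassium-chloride cotransporter KCC4. It had 147, 158 and 158 CPM in WT-labelled libraries and 67.1, 70.5 and 77.9 CPM in KO-labelled ones. Every KO-labelled library was well under every WT-labelled library, and the log2 fold change was -1.10 (SE 0.05, adjusted p = 1.40e-09). Potassium-chloride cotransporters carry both ions out of the cell and lower its volume and chloride. The most abundant of them, Slc12a4 (KCC1), had 236, 232 and 226 CPM in WT-labelled libraries and 279, 284 and 284 CPM in KO-labelled ones. It was higher in every KO-labelled library, with a log2 fold change of 0.29 (SE 0.03, adjusted p = 2.90e-06).

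Slc12a5 (ENSMUSG00000017740.17, GRCm38 chromosome 2, 164960802 to 164999731, plus strand), KCC2, is best known as the chloride extruder of neurons. It had 20, 21 and 23 counts in WT-labelled libraries and 71, 77 and 76 in KO-labelled ones. These counts do not overlap, and the log2 fold change was 1.62 (SE 0.18, adjusted p = 7.52e-06). Per length Slc12a5 stayed low, at 0.0889 CPM per kb in WT-labelled libraries and 0.276 in KO-labelled ones. Together Slc12a4, Slc12a5 and Slc12a7 had 66.4 ± 0.87 and 72.0 ± 1.09 CPM per kb (SD, n = 3), without overlap. In that sum the share of Slc12a7 was 18.3% ± 0.88 in WT-labelled libraries and 7.87% ± 0.50 in KO-labelled ones. The share of Slc12a4 was 81.5% ± 0.89 and 91.7% ± 0.53.

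**Figure D4:**
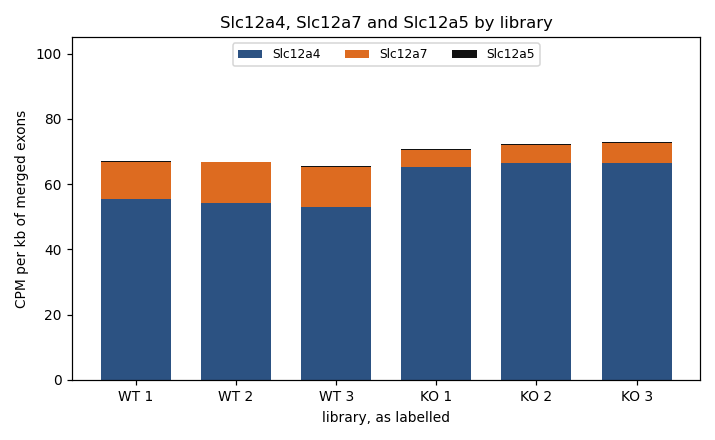
Each bar is a library, as labelled, and its parts are the CPM per kb of merged exons of Slc12a4, Slc12a7 and Slc12a5, which add up to the sum of these 3 potassium-chloride cotransporters. The part of Slc12a7 is smaller and that of Slc12a4 larger in each of the 3 KO-labelled libraries, and Slc12a5 is a thin line at the top.

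Slc12a2, the sodium-potassium-chloride cotransporter NKCC1, carries the same ions into the cell. It fell by 0.28 on the log2 scale (SE 0.04), from 66.1 ± 2.96 to 54.5 ± 0.68 CPM (SD, n = 3). Slc12a9 rose by 0.23 (SE 0.05), and Slc12a8 had a log2 fold change of 0.36 (SE 0.18, adjusted p = 0.0991). Leaving out single libraries moved Slc12a8 between 0.22 (adjusted p = 0.341, without KO library 1) and 0.48 (adjusted p = 0.0519, without WT library 1). Without KO library 3 it was 0.46 (adjusted p = 0.0441). In a list of 8 genes for the kinases that control this family by phosphorylation and for the scaffold proteins Cab39 and Cab39l that bind some of them, 7 were tested and 6 passed the adjusted p, 3 higher and 3 lower, where 58.7% of all tested genes passed. The kinases Wnk4 and Wnk3 were called, both at low levels, where 17.7% of all tested genes were called. Wnk4 had 54, 61 and 54 counts in WT-labelled libraries and 123, 140 and 134 in KO-labelled ones, with a log2 fold change of 1.05 (SE 0.13). Wnk3 had 33, 19 and 24 counts and 3, 8 and 13 counts, with a log2 fold change of -1.83 (SE 0.41). The abundant Wnk1 had a log2 fold change of 0.12 (SE 0.06, adjusted p = 0.0754).

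Slc26a10 (ENSMUSG00000040441.11, GRCm38 chromosome 10, 127171393 to 127180645, minus strand) belongs to the anion exchanger family. It had 16, 15 and 23 counts in WT-labelled libraries and 52, 80 and 58 in KO-labelled ones. The groups do not overlap, and the log2 fold change was 1.62 (SE 0.22, adjusted p = 3.65e-05). Of its exon bases, 17.8% lie opposite exons of the neighbouring gene B4galnt1, which had a mean of 62.6 CPM in WT-labelled libraries and 79.3 CPM in KO-labelled ones, with a log2 fold change of 0.34. Whether counting used strand is not given in the sources used here, so it is not known how reads in this overlap entered the counts of Slc26a10. Slc26a11, the most abundant Slc26 gene per length, had 27.6, 28.6 and 31.3 CPM in WT-labelled libraries and 36.3, 38.7 and 42.4 CPM in KO-labelled ones. It was higher in every KO-labelled library, with a log2 fold change of 0.42 (SE 0.06, adjusted p = 6.65e-05). Slc26a2, the sulfate transporter that feeds proteoglycan sulfation, fell by 0.50 on the log2 scale (SE 0.06), from 27.9 ± 0.23 to 19.8 ± 1.52 CPM. Slc26a6 and Slc26a8 did not pass, at log2 fold changes of 0.12 (SE 0.14, adjusted p = 0.488) and -0.53 (SE 0.28, adjusted p = 0.122). The value of Slc26a8 rested on WT library 2, which at 1.94 CPM lay above the other WT-labelled libraries at 0.957 and 1.03 CPM. Without it the log2 fold change of Slc26a8 was -0.12 (adjusted p = 0.699), and without WT library 1 it was -0.71 (adjusted p = 0.0492).

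Slc4a4 (ENSMUSG00000060961.15, GRCm38 chromosome 5, 88886818 to 89239653, plus strand) is the sodium-bicarbonate cotransporter NBCe1, which brings bicarbonate into duct cells. It had 0, 1 and 1 counts in WT-labelled libraries, at or under the floor, and 14, 23 and 15 counts in KO-labelled ones. Against the floor of 3 counts in each library this is at least 5.02-fold higher (adjusted p = 3.02e-05), at a level of 0.0432 CPM per kb that remains among the lowest of all members. The summed epithelial markers, given above, moved the same way, at 4.29 to 5.23 and 23.9 to 24.4 CPM. Most of that sum was Krt7, at a mean of 4.38 CPM in WT-labelled libraries and 23.1 CPM in KO-labelled ones. Cdh1 was at 0.340 and 0.719 CPM, Krt8 was not tested, and Epcam, Krt18, Krt19 and Cldn4 were not listed. The part of these markers in the Slc4a4 counts was not tested. Slc4a8, a sodium-dependent chloride-bicarbonate exchanger, was not tested, with 4, 1 and 1 counts and 9, 9 and 11 counts. The anion exchanger Slc4a2, the most abundant Slc4 gene, had 234, 229 and 224 CPM in WT-labelled libraries and 208, 202 and 214 CPM in KO-labelled ones, a small drop without overlap (log2 fold change -0.14, SE 0.03, adjusted p = 0.00252). Slc4a3, an anion exchanger like it, fell by 0.19 (SE 0.04). The sodium-bicarbonate cotransporter Slc4a7 had a log2 fold change of -0.12 (SE 0.06, adjusted p = 0.109), and leaving out single libraries moved it between -0.07 (adjusted p = 0.37, without WT library 3) and -0.16 (adjusted p = 0.0517, without WT library 2), with an adjusted p of 0.048 without KO library 3. Slc4a11 was at 0.914 ± 0.24 and 1.36 ± 0.45 CPM, with a log2 fold change of 0.59 (SE 0.26, adjusted p = 0.0705). Single libraries decided Slc4a11 in both directions. Without KO library 2 its log2 fold change was 0.29 (adjusted p = 0.385), and without WT library 2 or KO library 3 it was 0.84 and 0.78 (adjusted p = 0.0398 and 0.0145).

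Genes of the carbonic anhydrase family, whose active members make bicarbonate that Slc4 and Slc26 proteins carry, were listed with other bicarbonate genes. Of the 15 in this list, 7 were tested and all 7 passed the adjusted p, 5 higher and 2 lower, against 58.7% of all tested genes. Of these, 2 were called, where 17.7% of all tested genes were, both anhydrases of the cell surface with their active site outside. Car9 had 0, 1 and 0 counts in WT-labelled libraries and 54, 67 and 61 in KO-labelled ones, at least 17.8-fold higher against the floor. Car12 had 6, 2 and 3 counts and 41, 43 and 25 counts, with a log2 fold change of 3.08 (SE 0.37). Car1, Car2, Car3, Car4, Car6, Car8, Car10 and Car14 were not listed.

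**Figure D5:**
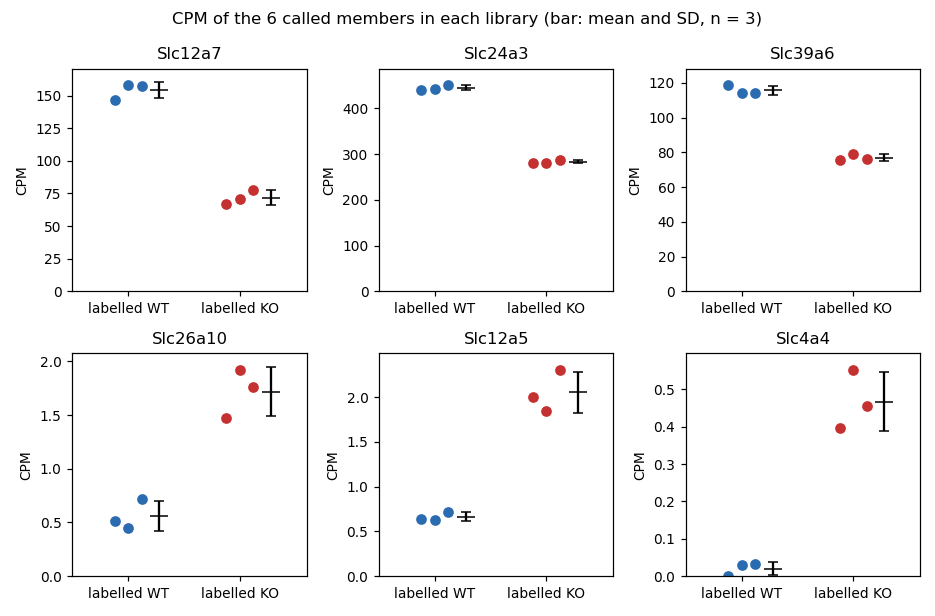
Each panel shows a called member, with CPM on an axis from 0 and 1 point for each WT-labelled library (blue) and labelled KO (red); the bar beside the points is the mean and SD of 3 libraries. The groups overlap in no panel, but these members were picked by their call in the same libraries, which favours such a gap. Of all tested genes, 64.2% had no overlap of CPM either. No WT-labelled library had more than 3 counts of Slc4a4, the floor of detection.

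Of the 5 sodium-proton exchangers tested, none was called, where 17.7% of all tested genes were, and 2 (40%) passed the adjusted p, against 58.7%. Of these, Slc9a5 had 34.7, 33.0 and 36.8 CPM in WT-labelled libraries and 42.4, 44.3 and 43.1 CPM in KO-labelled ones. It was higher in every KO-labelled library, with a log2 fold change of 0.31 (SE 0.05, adjusted p = 6.87e-05). Slc9a8, an exchanger of the Golgi and plasma membrane, had 71.1 ± 2.75 and 70.5 ± 1.59 CPM (SD, n = 3) and a log2 fold change of -0.01 (SE 0.04, adjusted p = 0.769). The endosomal exchanger Slc9a9 had a log2 fold change of 0.22 (SE 0.09, adjusted p = 0.055), and leaving out single libraries moved it between 0.14 (adjusted p = 0.253, without KO library 2) and 0.28 (adjusted p = 0.0293, without KO library 1). Of the 8 genes in a list of partners of these exchangers, 6 were tested and all 6 passed the adjusted p, 3 higher and 3 lower, against 58.7% of all tested genes. Of the 6, only Ezr was called, near the 17.7% of all tested genes. Ezr (ezrin), which links membrane proteins to actin, had 752, 808 and 786 counts in WT-labelled libraries and 5715, 7157 and 5416 in KO-labelled ones, with a log2 fold change of 2.77 (SE 0.04, adjusted p = 2.64e-14).

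Slc24a3 (ENSMUSG00000063873.10, GRCm38 chromosome 2, 145167754 to 145642166, plus strand) is a potassium-dependent sodium-calcium exchanger, which moves calcium out of the cell. It had 441, 443 and 451 CPM in WT-labelled libraries and 282, 281 and 287 CPM in KO-labelled ones. The wells of a group lay close together and the groups far apart, with a log2 fold change of -0.65 (SE 0.03, adjusted p = 7.32e-10). Per length it went from 97.5 ± 1.18 to 62.1 ± 0.72 CPM per kb (SD, n = 3). Slc8a1, the cardiac type of sodium-calcium exchanger, had 11.3, 11.7 and 13.3 CPM in WT-labelled libraries and 13.4, 14.4 and 15.4 CPM in KO-labelled ones. The groups came close without overlapping, with a log2 fold change of 0.26 (SE 0.08, adjusted p = 0.0115), and its adjusted p was 0.0521 without WT library 2. Slc8a3 was not tested, with 3, 7 and 5 counts and 12, 10 and 12 counts. Of 7 calcium pumps, 4 were tested and all 4 passed the adjusted p, 2 in each direction, against 58.7% of all tested genes. Of the 4, Atp2b4 and Atp2a3 were called, where 17.7% of all tested genes were. The plasma membrane pump Atp2b4 had a log2 fold change of -0.90 (SE 0.08), from 23.7 to 12.7 CPM, and the reticulum pump Atp2a3 one of 0.59 (SE 0.19) at 1.19 and 1.79 CPM.

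Both iron carriers were lower in KO-labelled libraries. Slc40a1 (ferroportin), the exporter of iron, had 17.7, 18.8 and 19.8 CPM in WT-labelled libraries and 13.7, 12.3 and 14.2 CPM in KO-labelled ones, with a log2 fold change of -0.49 (SE 0.07, adjusted p = 4.27e-05). Slc11a2 (DMT1), which brings iron and other divalent metals into the cytosol, had 69.1, 66.2 and 66.7 CPM and 58.0, 60.3 and 60.2 CPM, with a log2 fold change of -0.18 (SE 0.04, adjusted p = 0.000771). Neither gene overlapped between the groups, like 64.2% of all tested genes, and neither reached 1.5-fold. In a list of 16 iron genes, 13 were tested and 9 passed the adjusted p, 5 higher and 4 lower, and 3 of these were called, near the shares of all tested genes, 58.7% and 17.7%. Cp (ceruloplasmin), which oxidizes the iron that ferroportin exports, had 7464, 7636 and 7167 counts in WT-labelled libraries and 2761, 3255 and 2616 in KO-labelled ones, with a log2 fold change of -1.55 (SE 0.03). The metalloreductases Steap3 and Steap4 were higher, Steap3 with a log2 fold change of 1.28 (SE 0.05). Steap4 had 38, 42 and 28 counts in WT-labelled libraries and 298, 253 and 244 in KO-labelled ones, 6.49-fold higher in the fit. The transferrin receptor Tfrc had a log2 fold change of -0.04 (SE 0.09, adjusted p = 0.709). Of 4 genes for copper and other metals, 3 passed the adjusted p, each of them lower, against 58.7% of all tested genes. The copper pump Atp7b was called, where 17.7% of all tested genes were. Its counts were 30, 59 and 66 in WT-labelled libraries and 13, 20 and 13 in KO-labelled ones (log2 fold change -1.93, SE 0.30).

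The 3 magnesium carriers of Slc41 all passed the adjusted p, as did 58.7% of all tested genes. Each was under 1.5-fold, and they moved in opposite directions. Slc41a1, a sodium-magnesium exchanger that exports magnesium, had 81.6, 81.5 and 81.4 CPM in WT-labelled libraries and 56.7, 56.4 and 55.4 CPM in KO-labelled ones. With so little spread between wells, its log2 fold change of -0.54 (SE 0.03) had an adjusted p of 1.87e-08. Slc41a2, at 17.3, 16.5 and 17.3 CPM and 24.6, 25.5 and 21.9 CPM, rose by 0.50 (SE 0.06), and Slc41a3 fell by 0.20 (SE 0.05). The share of Slc41a1 in the family, per length, was 59.1% ± 0.43 in WT-labelled libraries and 49.4% ± 1.06 in KO-labelled ones. Of 5 further magnesium genes tested, 2 passed the adjusted p, both lower, against 58.7% of all tested genes. None of the 5 was called, against 17.7%.

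The phosphate carriers Slc20a1 (PiT1) and Slc20a2 (PiT2) bring phosphate into the cell with sodium, and they moved apart. Slc20a2 had 44.6, 44.7 and 43.1 CPM in WT-labelled libraries and 60.1, 56.9 and 55.6 CPM in KO-labelled ones, a log2 fold change of 0.38 (SE 0.04, adjusted p = 3.81e-06). Slc20a1 fell by 0.27 on the log2 scale (SE 0.06), from 36.7 ± 3.48 to 30.5 ± 0.76 CPM (SD, n = 3). The sum of both per length overlapped between the groups, at 13.7 ± 0.72 and 14.7 ± 0.35 CPM per kb, and the share of Slc20a2 in it was 52.0% ± 2.04 and 62.9% ± 1.25. Of 4 genes for phosphate export and sensing 3 were tested. The phosphate exporter Xpr1 fell by 0.42 (SE 0.03), and Ank, which exports ATP and so supplies pyrophosphate, fell by 0.79 (SE 0.04), to 69.6 CPM. Alpl, a phosphatase that frees phosphate from pyrophosphate, had 9, 7 and 11 counts and 44, 51 and 31 counts, with a log2 fold change of 2.02 (SE 0.27).

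Promoters were read because the groups are labelled for a difference in GLI factors, which bind a known DNA motif. RefSeq windows (GRCm38.p6) of 250 bases before to 50 after a start were at hand for 37 of the 49 members, 47 windows in all. The full GLI consensus GACCACCCA was in 0 of the 47 windows and in 0.253% of 32851 windows of all genes, both strands read. Its core TGGGTGG, which on the other strand reads as the last bases of the consensus, was in 9 of 47 windows (19.1%) and in 9.30% of all windows. The metal response core TGCACNC was in 9 of 47 windows (19.1%) against 12.6%, the looser TGCNCNC, which includes it, in 31 windows (66.0%) against 51.0%, and the E-box CACGTG in 8 windows (17.0%) against 7.15%. Windows of the members were also richer in CpG pairs, with a median of 15 in the 250 bases before the start, against 6 over all windows, and the part of this in the motif shares was not tested. Of the called members, Slc4a4, Slc12a5, Slc24a3 and Slc26a10 had the GLI core and the windows of Slc12a7 did not. The nearest start with a window for Slc12a7 lay 30566 bases from its GENCODE gene start, so the bases before that gene start were not read. Slc39a6, the other called member, was left out of this reading. A match is a description of letters and not a binding site, and a window without a match says nothing of the factor. The 250 bases before the start nearest to the GENCODE gene start are shown 5′ to 3′ on the gene's strand for the 4 called members that hold the core, with capitals at each match of TGGGTGG or of TGCACNC on either strand. The 2 GLI core matches of Slc24a3 overlap, and it also holds a metal response core.
Slc24a3, chr2:145167525-145167774, plus strand: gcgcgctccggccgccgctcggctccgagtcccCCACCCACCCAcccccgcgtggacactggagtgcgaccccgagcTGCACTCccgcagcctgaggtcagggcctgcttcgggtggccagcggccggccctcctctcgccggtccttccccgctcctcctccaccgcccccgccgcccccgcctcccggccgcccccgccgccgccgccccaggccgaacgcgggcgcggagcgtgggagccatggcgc
Slc12a5, chr2:164960596-164960845, plus strand: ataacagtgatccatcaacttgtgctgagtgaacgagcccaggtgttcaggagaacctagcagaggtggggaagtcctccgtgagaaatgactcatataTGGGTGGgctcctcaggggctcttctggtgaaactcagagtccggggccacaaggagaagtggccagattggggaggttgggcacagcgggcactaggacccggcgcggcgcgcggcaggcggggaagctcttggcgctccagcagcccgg
Slc26a10, chr10:127180583-127180832, minus strand: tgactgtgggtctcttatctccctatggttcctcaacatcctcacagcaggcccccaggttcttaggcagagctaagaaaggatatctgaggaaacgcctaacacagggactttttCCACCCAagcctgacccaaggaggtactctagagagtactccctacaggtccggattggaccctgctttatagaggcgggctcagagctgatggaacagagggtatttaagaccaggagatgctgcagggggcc
Slc4a4, chr5:88887010-88887259, plus strand: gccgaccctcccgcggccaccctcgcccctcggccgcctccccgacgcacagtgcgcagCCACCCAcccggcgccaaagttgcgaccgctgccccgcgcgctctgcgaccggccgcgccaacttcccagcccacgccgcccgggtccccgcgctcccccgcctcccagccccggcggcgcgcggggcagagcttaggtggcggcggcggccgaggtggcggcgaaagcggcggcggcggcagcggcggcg

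Counted back from the start, the GLI core of Slc12a5 spans bases 151 to 145, that of Slc26a10 134 to 128, and that of Slc4a4 191 to 185. In Slc24a3 the overlapping matches span 217 to 211 and 213 to 207, and the metal response core 173 to 167. Slc24a3 was lower and the other 3 higher in KO-labelled libraries, so these called members did not share a direction. The core was also in windows of Slc26a8, Slc30a7, Slc41a1, Slc41a3 and Slc8a1, which were not called. Their log2 fold changes were -0.53, 0.16, -0.54, -0.20 and 0.26. A part of GLI factors in these directions was not tested.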

How the data were processed

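RNA of 3 wells labelled WT and 3 labelled KO was made into polyA libraries with an NEB Ultra 2 kit, per the labels. The authors deposited gene-level read counts without normalization, low genes already removed, and voom log2 CPM values. The submitters' processing notes name STAR 2.7.2b, featureCounts, limma and GRCm38.p6, and the strand setting and annotation are not given in the sources used here. Groups were taken from the genotype label. Every column matched a sample.

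Counts were tested in edgeR 4.0.16 (R 4.3.3) with TMM normalization, filterByExpr and the quasi-likelihood F test, and p-values were adjusted by Benjamini-Hochberg over all 14289 genes tested. CPM values use TMM-scaled library sizes. Each SE is the log2 fold change divided by the square root of F. A call needed an adjusted p under 0.05 and at least 1.5-fold. Folds against a group with at most 3 counts in each library are bounds against that floor, which covers counting error only. At 3 against 3, the smallest two-sided p of an exact permutation test is 0.1. The scripts were tested on simulated data. Wells of a group differed beyond sampling noise (chi-square per degree of freedom 2.47 to 7.53) and were kept as separate replicates.

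Positions, exon lengths and overlaps are from GENCODE M21 (GRCm38), which 14822 of the 14831 identifiers matched without their version. Exon length merges all annotated isoforms. Members, partner lists and the 5 motifs were chosen with earlier results of these data known. Values in every library are given for called members and for the member of each family with the highest level per length, and partner genes are named where called, at most 3 in a list by size of change. Gli1, Ptch1, B4galnt1, Gm20427, the metal response genes, the partner genes named without a call and the 3 genes without a symbol are named outside that rule. Alternatives were scaling by RLE or by total counts, a stricter and no count filter, a 2-fold and no fold limit, DESeq2 1.42.0, limma 3.58.1 on voom weights and on the deposited log2 values, and leaving out each library in turn. Counting all members past the adjusted p and adding the genes without a symbol were chosen after seeing the data. Values of 3 members are not reported here, and counts over all members include them.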

Additional observations from a re-analysis of the deposited data

How the results depend on the processing

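No paired analysis was possible because the labels give no replicate numbers. Of 36 members past the adjusted p of 0.05, none changed sign in 13 alternatives. In at least 1 of these, 4 members no longer passed the adjusted p (Slc30a7, Slc39a3, Slc39a7 and Slc8a1). At the 1.5-fold limit, Slc12a7, Slc24a3, Slc12a5, Slc26a10 and Slc4a4 were called under every other scaling, filter and test that tested them and without any 1 library, with log2 fold changes of -1.16 to -1.06, -0.66 to -0.62, 1.54 to 1.69, 1.48 to 1.84 and 3.80 to 4.64. With at least 10 counts in every library Slc4a4 was not tested.

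With no fold limit, 36 members were counted, 17 higher and 19 lower, among them 13 zinc transporters, 12 chloride and bicarbonate carriers and 2 sodium-proton exchangers. At a limit of 2-fold, 1 member was lower, Slc12a7 (Slc24a3 being under 2-fold), and 0 zinc transporters were called. The count of zinc transporters was also 0 with total counts only and with at least 10 counts in every library, since Slc39a6 then fell short of 1.5-fold. In limma on the deposited log2 CPM, 5 members were higher, Slc4a8 and Slc8a3 being added. With the 3 genes without a symbol, 1 sodium-proton exchanger was called, Slc9a7. Leaving out each library in turn gave 5 to 8 members called, 3 to 5 of them higher, with 5 without WT library 2 (Slc4a11 and Slc8a3 added). Zinc transporters called were 0 to 1, with 0 without WT library 1, KO library 1 or KO library 3. Depth limited genes near the floor: Slc4a8 and Slc8a3 were left untested by the expression filter, and DESeq2 and the fit with no count filter called Slc4a8. Total-count scaling moved the median log2 fold change of all genes by 0.0347, and RLE by -0.00146. The 6 libraries hold 1 comparison, so no interaction or batch term could be fitted.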

Other observations

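The annotation holds 82 genes of these families, of which 52 were listed by identifier and 30 were not listed. Of the 52, 3 had no symbol in the table, were named from the annotation by identifier and were chosen after their values were seen. Slc9a7, a sodium-proton exchanger of the Golgi, had 53, 52 and 79 counts in WT-labelled libraries and 13, 7 and 19 in KO-labelled ones. The groups do not overlap, and the log2 fold change was -2.41 (SE 0.32, adjusted p = 3.35e-05). Slc26a7, an anion exchanger, had 40, 53 and 45 counts in WT-labelled libraries and 110, 112 and 90 in KO-labelled ones, again without overlap, with a log2 fold change of 0.99 (SE 0.14, adjusted p = 6.98e-05). Slc8a2, a sodium-calcium exchanger best known from neurons, had 4, 9 and 11 counts and 11, 10 and 11 counts, which overlapped (log2 fold change 0.23, SE 0.39, adjusted p = 0.640). All 3 lay under 3 CPM in the mean of each group. The call on the sodium-proton family therefore differs with the choice by symbol, with 0 of 5 called by symbol and 1 of 6 when Slc9a7 is added. Of all tested genes, 17.7% were called.

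Partner genes of the carriers, taken over all 9 lists, held 73 genes, of which 54 were listed and 52 tested. Of these, 42 passed the adjusted p, 20 higher and 22 lower, and 13 were called, 8 higher and 5 lower. Of all tested genes, 58.7% passed the adjusted p and 17.7% were called, 11.6% higher and 6.1% lower. Among the genes for iron storage, the ferritin chains Fth1 and Ftl1 fell by 0.34 and 0.14 on the log2 scale, each under 1.5-fold.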
